A study of Mus musculus with 9 samples.

Results

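Cx3cr1, Ccr1, Ccr2 and Cxcr4 are chemokine receptor genes, and their transcripts were measured in cultured mouse macrophages after IL-27, after IL-4 and without cytokine. They were taken by symbol from a deposited table of 16200 genes, in which all 4 were present, and all 4 passed the filter on low counts that left 12587 genes for testing. The cells were wild-type macrophages grown from bone marrow. All 3 groups were grown with L929 supernatant, a source of macrophage growth factor, and the protocol gives 6 days of culture before the cells were harvested and reseeded. There were 3 libraries of polyA RNA from cells given 100.0 ng/ml IL-27 for 6 h, 3 from cells given 20.0 ng/ml IL-4 for 12 h and 3 from untreated cells. Because the treatment text is the same for all samples, it is not known from the labels whether IL-4 was also given to the IL-27 cells. Dose and time differ between the cytokines, so IL-27 against IL-4 compares 2 whole treatments. The design text speaks of replicate experiments without saying that they came from separate animals, so the p-values cover only how far these libraries differ, and that spread may be technical.

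Chemokine receptors are membrane proteins that couple to inhibitory G proteins and steer leukocytes along gradients of chemokines. Ccr2 binds Ccl2 and Ccl7 and brings monocytes out of the bone marrow, while Cx3cr1 binds the membrane-anchored chemokine Cx3cl1 (fractalkine) and is carried by patrolling monocytes and many tissue macrophages. Ccr1 binds Ccl3, Ccl5, Ccl6 and Ccl9, among others. Cxcr4 binds Cxcl12 and holds blood cells in the marrow.

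The 4 receptors share a short stretch at the end of the third helix, the DRY motif, through which receptors of this class engage their G proteins. It is shown here from the coding sequence of each gene (GENCODE M21, build GRCm38, 5′ to 3′, 45 bases each). Capitals mark the in-frame codons for Asp-Arg-Tyr.
Cx3cr1: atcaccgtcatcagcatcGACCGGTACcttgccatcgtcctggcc
Ccr1: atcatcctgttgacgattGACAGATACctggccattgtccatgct
Ccr2: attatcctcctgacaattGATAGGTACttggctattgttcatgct
Cxcr4: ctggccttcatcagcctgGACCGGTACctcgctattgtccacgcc
The marked codons start at base 379 of 1062 coding bases in Cx3cr1, 388 of 1065 in Ccr1, 448 of 1119 in Ccr2 and 403 of 1077 in Cxcr4. Cxcr4 has a further in-frame match at bases 565 to 573, which is not shown. The atypical receptor gene Ccrl2, which is also expressed in these cells, has no in-frame match to these codons in its 1080 coding bases.

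No source used here gives how the authors counted reads shared between genes or whether they used strand, so the exact levels of receptors with close relatives, Ccr1, Ccr2 and Ccr3 among them, are uncertain. The longest identical run of coding bases shared by Ccr1 with the receptors compared was 47 bases, with Ccr3, and Cx3cr1 and Cxcr4 shared at most 16 bases with any of them. Cx3cr1, Ccr1, Ccr2 and Ccr3 lie on chromosome 9 and Cxcr4 lies on chromosome 1.

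The libraries held 34577188 to 37951827 counts each. The labelled cell type was checked with 10 macrophage markers, all of which were counted in every group, and their summed level was 20290 to 22242 FPKM (counts per length and library total) in IL-27, 11401 to 12703 in IL-4 and 19110 to 23556 in untreated libraries. Most of that sum was Lyz2, which averaged 18590, 9081 and 17682 FPKM in these groups, while Cd68 averaged 1249, 1270 and 1252. At an edgeR adjusted p under 0.05, 0 of the 10 were higher and 5 lower with IL-4 than untreated. With IL-27 against untreated 0 were higher and 6 lower. Of all tested genes, 25.0% and 29.2% were called in these comparisons. Without IL-4 replicate 1 and untreated replicate 2, 2 of the 10 were higher and 7 lower with IL-4. With IL-27, 3 were higher and 7 lower in that fit, which called 46.4% and 49.5% of all tested genes. Dendritic cell and lymphocyte markers summed to at most 1.62 and 1.28 FPKM in any library. Neutrophil markers summed to 19.6 to 22.9 FPKM in IL-27, 4.84 to 8.24 in IL-4 and 8.72 to 12.6 in untreated libraries. Most of that was S100a8, which was higher with IL-27 (log2 fold change 1.02, edgeR adjusted p = 0.00542) and lower with IL-4 (-0.84, edgeR adjusted p = 0.0205) than untreated, while Elane and Retnlg were at 0 in the IL-27 and untreated groups and Mpo was at 0 in the IL-4 and untreated groups. Other members did not follow S100a8. S100a9 had 3, 16 and 16 counts in all in IL-27, IL-4 and untreated libraries, Ngp 0, 7 and 12, and Cxcr2 54, 103 and 79. Mast cell, basophil and eosinophil markers summed to 5.81 to 6.94 FPKM in IL-27, 14.0 to 17.3 in IL-4 and 15.1 to 16.001 in untreated libraries, most of it Siglecf, which was lower with IL-27 than untreated (-1.43, edgeR adjusted p = 3.11e-05). Fibroblast and endothelial markers are given beside Cxcl12. The part of these markers in the receptor values was not tested. Arg1, an IL-4 response gene, averaged 0.109 CPM in IL-27, 472 CPM in IL-4 and 5.26 CPM in untreated libraries, and the interferon-type gene Gbp2 averaged 539.7, 7.73 and 9.44 CPM in the same groups. IL-4 replicate 1 and untreated replicate 2 stood apart. Within-group pairs that included 1 of them differed by a chi-square of 121 to 152 per gene, and the remaining within-group pairs by 6.04 to 10.2. Each result below was also computed without both of them.

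With IL-4, Cx3cr1 and Cxcr4 fell and Ccr1 rose, while Ccr2 did not pass the test. Of the 4 receptors 3 were called, 1 higher and 2 lower, where 25.0% of all tested genes were called, 12.9% higher and 12.0% lower (edgeR adjusted p under 0.05, Benjamini-Hochberg over 12587 genes). The groups did not overlap for 3 of the 4, against 36.0% of all tested genes. Because whole cultures were sequenced, fewer cells carrying a transcript and less of it per cell cannot be told apart here.

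Cx3cr1, the fractalkine receptor, stood at 1.71, 1.97 and 1.57 FPKM in the IL-4 libraries, against 11.4, 9.65 and 13.1 FPKM in the untreated libraries. Every IL-4 library was far below every untreated one. The means were 1.75 ± 0.202 and 11.4 ± 1.73 FPKM (SD, n = 3 each). In the edgeR fit Cx3cr1 was 6.68-fold lower with IL-4 (log2 fold change -2.74 ± 0.13 SE, edgeR adjusted p = 6.44e-07). The counts behind it were 217 to 280 with IL-4 and 1310 to 1710 without.

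Cxcr4, the Cxcl12 receptor, stood at 18.8, 17.8 and 16.4 FPKM in the IL-4 libraries, against 57.8, 66.4 and 62.3 FPKM in the untreated libraries. The groups were far apart, and both were narrow. Cxcr4 was 3.62-fold lower with IL-4 (log2 fold change -1.86 ± 0.13 SE, edgeR adjusted p = 7.52e-06).

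Ccr1, a receptor for several inflammatory CC chemokines, moved the other way, with 43.8, 74.4 and 70.8 FPKM in the IL-4 libraries and 39.7, 27.5 and 43.0 FPKM in the untreated libraries. The lowest IL-4 value, from replicate 1, lay just above the highest untreated value, and the lowest untreated value came from replicate 2. Ccr1 was 1.66-fold higher with IL-4 (log2 fold change 0.73 ± 0.17 SE, edgeR adjusted p = 0.00964).

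Ccr2, the receptor of monocyte egress, had 2.90, 6.42 and 5.67 FPKM in the IL-4 libraries, against 3.89, 1.60 and 4.35 FPKM in the untreated libraries. The groups overlapped, and the low value in each was again IL-4 replicate 1 and untreated replicate 2. The log2 fold change was 0.57 ± 0.35 SE (edgeR adjusted p = 0.273). Without both of these libraries it was 0.52 ± 0.15 SE and was called (edgeR adjusted p = 0.00697), in a fit that called 46.4% of all tested genes.

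**Figure D1:**
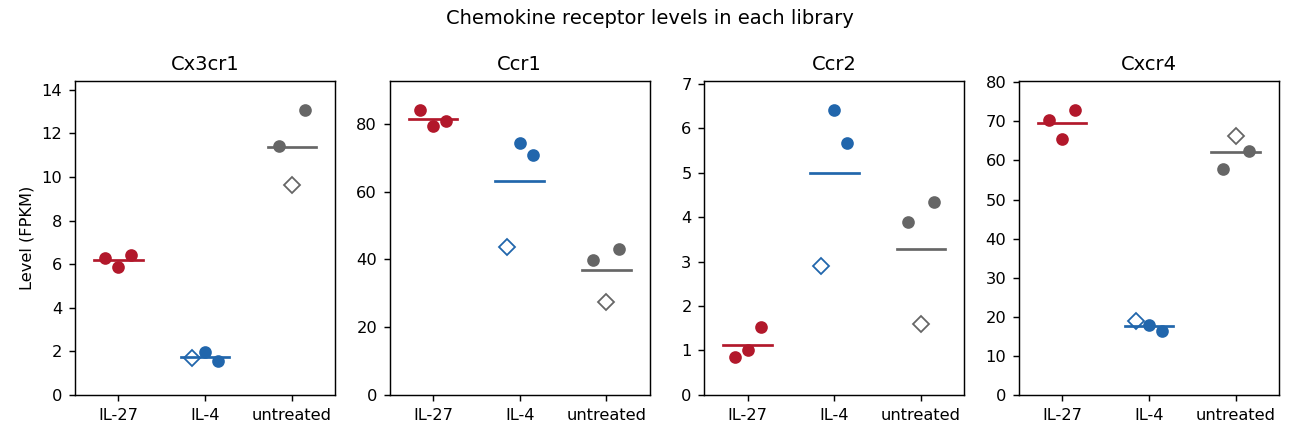
Deposited FPKM of each receptor in each library (y axis, one scale per gene, starting at 0), by group on the x axis, with points for libraries and a line for the mean of 3. Open diamonds mark IL-4 replicate 1 and untreated replicate 2. Cx3cr1 and Cxcr4 were lowest in the IL-4 libraries and Ccr2 in the IL-27 libraries, while Ccr1 was lowest in the untreated libraries.

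With IL-27, Ccr1 rose and Ccr2 and Cx3cr1 fell, while Cxcr4 did not pass the test. Of the 4 receptors 3 were called, 1 higher and 2 lower, in a comparison that called 29.2% of all tested genes, 14.0% higher and 15.1% lower. The groups did not overlap for 3 of the 4, against 52.2% of all tested genes.

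Ccr1 stood at 84.2, 79.2 and 80.9 FPKM in the IL-27 libraries, above the 39.7, 27.5 and 43.0 FPKM of the untreated libraries. The IL-27 libraries lay close together and well clear of the untreated ones. The means were 81.4 ± 2.53 and 36.7 ± 8.19 FPKM (SD, n = 3 each). In the edgeR fit Ccr1 was 2.26-fold higher with IL-27 (log2 fold change 1.18 ± 0.17 SE, edgeR adjusted p = 0.000567).

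Cx3cr1 had 6.27, 5.88 and 6.43 FPKM in the IL-27 libraries, against 11.4, 9.65 and 13.1 FPKM in the untreated libraries. The groups did not overlap. The fall was 1.81-fold (log2 fold change -0.85 ± 0.12 SE, edgeR adjusted p = 0.000478).

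Ccr2 had 0.849, 1.02 and 1.52 FPKM in the IL-27 libraries, from 149, 179 and 266 counts, and 3.89, 1.60 and 4.35 FPKM in the untreated libraries, from 635, 273 and 715 counts. The highest IL-27 value was close to the lowest untreated one, that of replicate 2. Ccr2 was 2.82-fold lower with IL-27 (log2 fold change -1.49 ± 0.37 SE, edgeR adjusted p = 0.0126). The call was lost without IL-27 replicate 1 (log2 fold change -1.32, edgeR adjusted p = 0.0577) and without IL-27 replicate 2 (-1.43, edgeR adjusted p = 0.0533), while without untreated replicate 2 and IL-4 replicate 1 together it was kept, at -1.80 (edgeR adjusted p = 2.96e-10).

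Cxcr4 had 70.3, 65.6 and 73.0 FPKM in the IL-27 libraries and 57.8, 66.4 and 62.3 FPKM in the untreated libraries. The groups overlapped through untreated replicate 2. The log2 fold change was 0.18 ± 0.12 SE (edgeR adjusted p = 0.310), and without both libraries that stood apart it was 0.28 ± 0.05 SE and was called (edgeR adjusted p = 9.41e-05), where 49.5% of all tested genes were called.

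Set directly against the IL-4 libraries, the IL-27 libraries had higher Cx3cr1 and Cxcr4 and lower Ccr2. Of the 4 receptors 3 were called, 2 higher and 1 lower, where 39.8% of all tested genes were called, 18.8% higher and 21.0% lower. The groups did not overlap for any of the 4, against 56.7% of all tested genes. The 3 comparisons share libraries, so their values are given side by side and do not stand as separate evidence.

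Cxcr4 averaged 69.6 ± 3.76 FPKM in IL-27 and 17.7 ± 1.22 FPKM in IL-4 libraries (SD, n = 3 each). The edgeR fit gave a 4.09-fold difference (log2 fold change 2.03 ± 0.13 SE, edgeR adjusted p = 1.26e-06). Cx3cr1 averaged 6.19 ± 0.282 FPKM in IL-27 and 1.75 ± 0.202 FPKM in IL-4 libraries, and the edgeR fit gave a 3.69-fold difference (log2 fold change 1.88 ± 0.12 SE, edgeR adjusted p = 1.80e-06). Ccr2 averaged 1.13 ± 0.348 FPKM in IL-27 and 4.996 ± 1.86 FPKM in IL-4 libraries, and was 4.19-fold lower with IL-27 (log2 fold change -2.07 ± 0.37 SE, edgeR adjusted p = 0.00151). For Ccr2 the highest IL-27 library lay below the lowest IL-4 library.

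Ccr1 averaged 81.4 ± 2.53 FPKM in IL-27 and 62.99 ± 16.7 FPKM in IL-4 libraries, with a log2 fold change of 0.44 ± 0.17 SE that did not pass (edgeR adjusted p = 0.0563). The IL-4 spread came from replicate 1, at 43.8 FPKM. Ccr1 was called with DESeq2 (log2 fold change 0.44, adjusted p = 0.0380), with a fit to only these 2 groups (0.44, edgeR adjusted p = 0.0429) and without both libraries that stood apart, where the difference was 0.27 ± 0.05 SE (edgeR adjusted p = 4.04e-05) and 58.3% of all tested genes were called. Ccr1 was called above untreated cells with either cytokine, while its call between the cytokines changed with these settings.

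**Figure D2:**
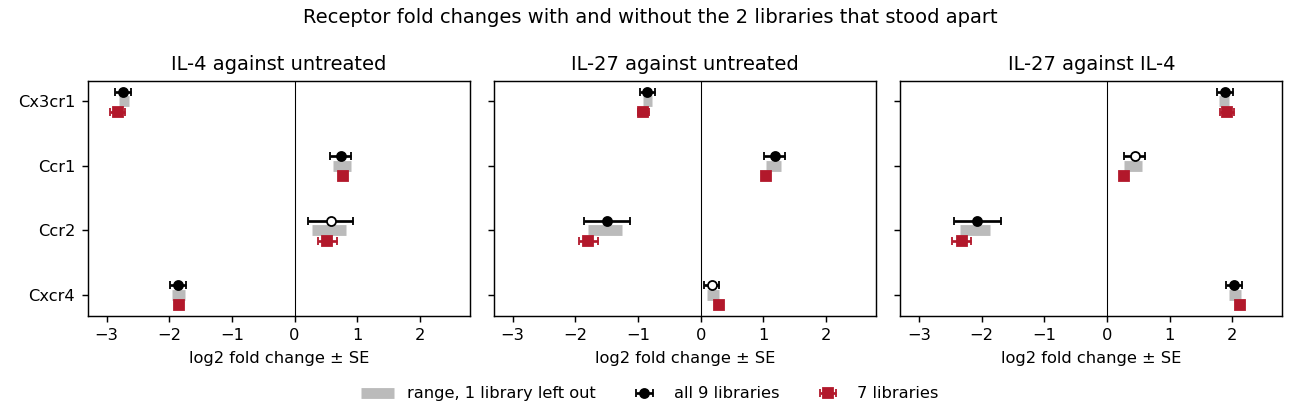
Log2 fold changes of the 4 receptors (x axis, bars ± SE) with all 9 libraries (circles) and without IL-4 replicate 1 and untreated replicate 2 (squares), filled where the edgeR adjusted p was under 0.05. Grey bands span the fits that left out 1 library. No receptor changed sign, and the open circles for Ccr2, Cxcr4 and Ccr1 have filled squares beside them.

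In the 2 libraries that stood apart, the receptors moved by gene. Relative to the other libraries of its group, IL-4 replicate 1 deviated by -0.90 in Ccr2 and -0.58 in Ccr1, against 0.11 in Cx3cr1 and 0.29 in Cxcr4 (log2). Untreated replicate 2 deviated by -1.19 in Ccr2 and -0.42 in Ccr1, against -0.17 in Cx3cr1 and 0.32 in Cxcr4. Both libraries were low in Ccr1 and Ccr2 and above their groups in Cxcr4. Transcript GC content was 39.4% in Ccr2 and 39.1% in Ccr1, at percentiles 4.4 and 3.7 of the tested genes. It was 46.1% in Cxcr4 and 50.3% in Cx3cr1, at percentiles 31.1 and 53.0. The 942 genes of lowest GC content had a median deviation of -0.65 in IL-4 replicate 1 and -0.62 in untreated replicate 2, and the 942 of highest GC content 0.44 and 0.39. The part of GC content in any receptor's value was not tested.

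FPKM is scaled by gene length, so the receptors can be set beside each other within a library. Ccr1 led in all IL-27 libraries, followed by Cxcr4, Cx3cr1 and Ccr2. In all IL-4 libraries the order was Ccr1, Cxcr4, Ccr2 and Cx3cr1, and in all untreated libraries Cxcr4, Ccr1, Cx3cr1 and Ccr2. Within each group no neighbouring pair in this order overlapped.

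The 4 receptors summed to 158 ± 5.77 FPKM in IL-27, 87.4 ± 17.8 in IL-4 and 114 ± 8.88 in untreated libraries (SD, n = 3 each). Ccr1 made up 51.4% of that sum in IL-27, 71.4% in IL-4 and 32.1% in untreated libraries, and Cxcr4 made up 43.95%, 21.0% and 55.0%. Cx3cr1 made up 3.91%, 2.05% and 9.99%, and Ccr2 0.711%, 5.57% and 2.84%, in the same order of groups. Ccr1 and Cxcr4 together thus held most of the summed level in every group, and Ccr2 was the smallest part except with IL-4, where Cx3cr1 was.

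The ratio of Ccr2 to Cx3cr1, the pair used to tell inflammatory from patrolling monocytes in mice, was 0.136 to 0.236 in IL-27, 1.70 to 3.62 in IL-4 and 0.166 to 0.340 in untreated libraries (FPKM over FPKM). The IL-4 libraries stood clear of the other groups, while IL-27 and untreated libraries overlapped through untreated replicate 2 alone (0.166). The other untreated libraries had ratios of 0.340 and 0.332, above every IL-27 library. The ratio of Ccr1 to Cxcr4 was 1.11 to 1.21, 2.33 to 4.32 and 0.414 to 0.691 in the same groups, with no overlap.

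**Figure D3:**
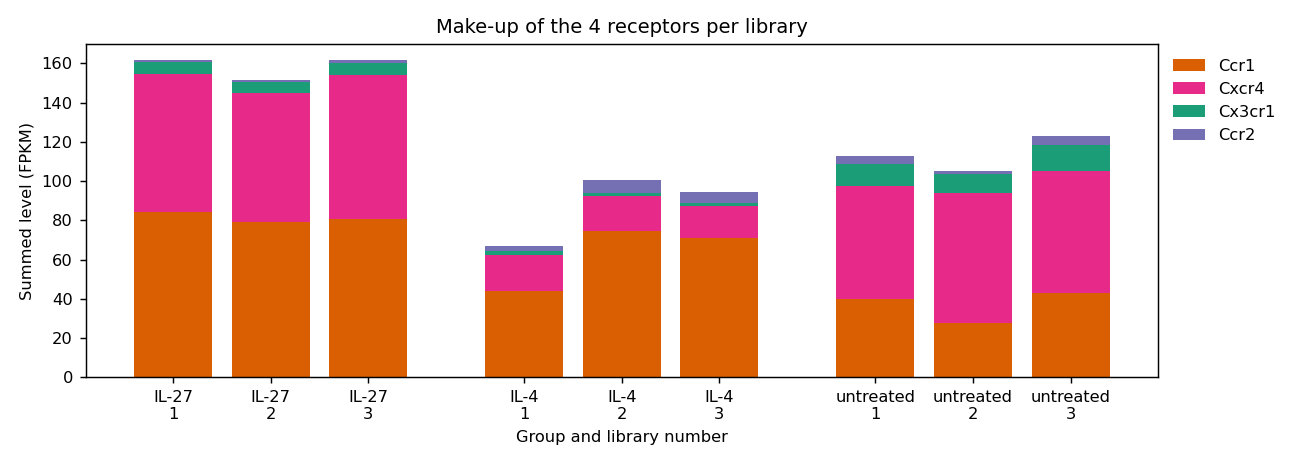
Summed FPKM of Ccr1, Cxcr4, Cx3cr1 and Ccr2 in each library (y axis), stacked by receptor, with IL-27, IL-4 and untreated libraries from left to right. The Cxcr4 share was smallest in the IL-4 libraries, at 21.0% on average, and the Ccr1 share was smallest in the untreated libraries, at 32.1%.

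Other chemokine receptors give the setting for these values. Of the other receptors reported here, 6 passed the filter and 10 did not, and those 10 had at most 10 counts in any library. In IL-4 against untreated 1 of the 6 was higher and 2 lower, in IL-27 against untreated 2 higher and 2 lower, and in IL-27 against IL-4 3 higher and 1 lower. Of all tested genes, 25.0%, 29.2% and 39.8% were called in these comparisons. Without the 2 libraries that stood apart the counts were 1 and 2, 2 and 2, and 3 and 1, beside 46.4%, 49.5% and 58.3% of all tested genes.

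Ccr3, the eotaxin receptor, averaged 0.134 ± 0.0271 FPKM in IL-27, 2.51 ± 0.950 in IL-4 and 0.931 ± 0.144 in untreated libraries (SD, n = 3 each). It was higher with IL-4 than without (log2 fold change 1.38 ± 0.26 SE, edgeR adjusted p = 0.00364) and lower with IL-27 than without (-2.77 ± 0.31 SE, edgeR adjusted p = 0.000138). Ccr3 and Ccr2 were both lower with IL-27 than with IL-4 (log2 fold changes of -4.15 and -2.07), while Ccr1 had a log2 fold change of 0.44 that did not pass.

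Ccrl2, which binds chemerin and does not signal as conventional receptors do, had 52.2, 46.6 and 49.9 FPKM in the IL-27 libraries, 6.54, 8.58 and 8.15 FPKM in the IL-4 libraries and 23.4, 20.9 and 25.4 FPKM in the untreated libraries. The 3 groups were separate. It was higher with IL-27 than untreated (log2 fold change 1.11 ± 0.09 SE, edgeR adjusted p = 2.10e-05) and lower with IL-4 than untreated (-1.63 ± 0.10 SE, edgeR adjusted p = 3.21e-06).

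The remaining tested receptors were low. Cxcr1, an interleukin-8 receptor in humans, averaged 1.76 FPKM in IL-27, 0.220 in IL-4 and 0.315 in untreated libraries, and was higher with IL-27 than untreated (log2 fold change 2.49 ± 0.33 SE, edgeR adjusted p = 0.000365). Cxcr3, the receptor of the interferon-induced chemokines, averaged 0.792, 0.377 and 2.20 FPKM and was lower than untreated with IL-27 (-1.47 ± 0.36 SE, edgeR adjusted p = 0.0123) and with IL-4 (-2.60 ± 0.39 SE, edgeR adjusted p = 0.00092). The Cxcr3 call with IL-27 was lost without IL-27 replicate 1 and without IL-27 replicate 2 (edgeR adjusted p = 0.0537 at most). Its call with IL-27 against IL-4 (1.13 ± 0.39 SE, edgeR adjusted p = 0.0426) was lost in 10 of 19 alternatives (adjusted p = 0.172 at most). Cxcr2 and the scavenging receptor Ackr4 were called in none of the 3 comparisons.

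**Figure D4:**
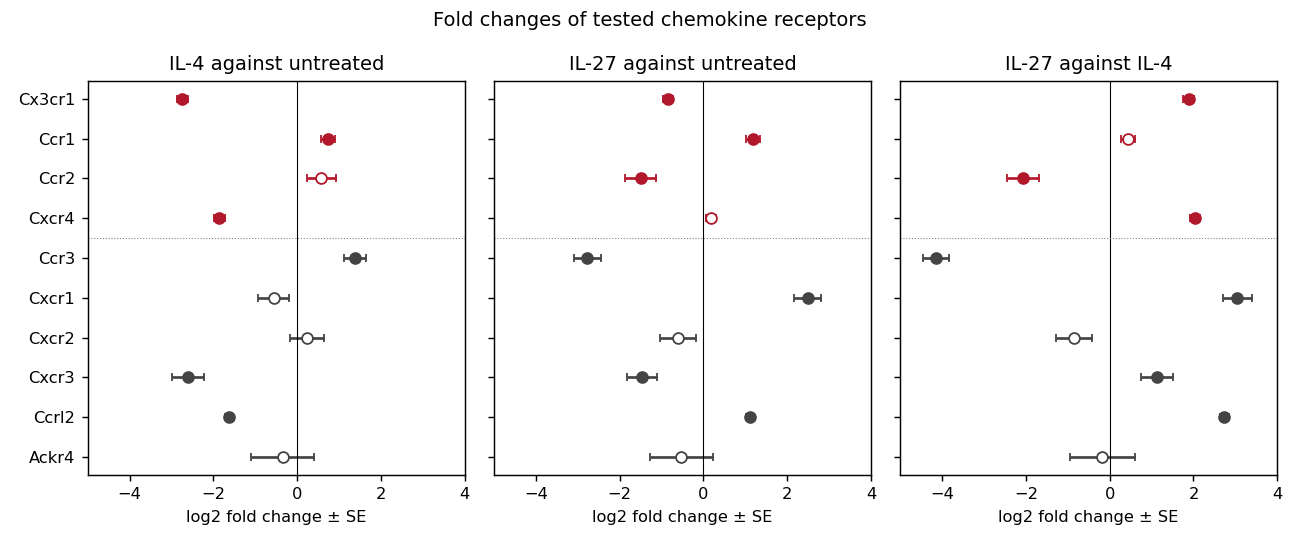
Log2 fold changes ± SE (x axis) of the 4 receptors (red, above the dotted line) and the 6 other receptors (grey), one panel per comparison. Filled points had an edgeR adjusted p under 0.05. With IL-27 against IL-4, Ccr2 and Ccr3 lay below 0 and Cx3cr1, Cxcr4, Cxcr1, Cxcr3 and Ccrl2 above it among the filled points.

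The ligands of the 4 receptors were also transcribed in these cultures. Of 10 tested ligand genes 3 rose and 1 fell with IL-4, 1 rose and 1 fell with IL-27, and 3 were higher and 3 lower with IL-27 than with IL-4. The median log2 fold changes were 0.11, 0.11 and -0.03, beside -0.01, 0.00 and 0.01 over all tested genes. Of all tested genes, 25.0%, 29.2% and 39.8% were called. The ligand share was below that of all genes with IL-27 against untreated and above it in the other comparisons. With 10 ligands tested, these shares are not read as a difference. Without the 2 libraries that stood apart the counts were 5 and 2, 3 and 2, and 4 and 3, where the shares of all genes were 46.4%, 49.5% and 58.3%.

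The Ccr2 ligands Ccl2 and Ccl7 rose with IL-4. Ccl2 had 26.1, 24.6 and 21.1 FPKM in the IL-4 libraries, against 10.1, 9.12 and 9.63 FPKM in the untreated libraries (log2 fold change 1.28 ± 0.19 SE, edgeR adjusted p = 0.00103). Ccl7 had 12.9, 25.5 and 22.7 FPKM in the IL-4 libraries, against 6.79, 3.97 and 6.39 FPKM in the untreated libraries (1.79 ± 0.27 SE, edgeR adjusted p = 0.000973). Neither ligand overlapped between these groups, and neither was called with IL-27 against untreated cells (0.12, edgeR adjusted p = 0.668, and 0.61, edgeR adjusted p = 0.117). Ccl7 with IL-27 passed in 2 of 19 alternatives, without IL-4 replicate 1 and without that library and untreated replicate 2 together (edgeR adjusted p = 0.0382 at least), and ranged from 0.38 to 0.75 as single libraries were left out.

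Among ligands of Ccr1, Ccl3 had 19.1, 25.3 and 20.9 FPKM in the IL-4 libraries, against 49.6, 44.6 and 49.7 FPKM in the untreated libraries. It fell while its receptor rose (log2 fold change -1.18 ± 0.12 SE, edgeR adjusted p = 0.000103). Ccl6 rose with IL-27 (0.84 ± 0.18 SE, edgeR adjusted p = 0.00557), and Ccl9 rose with IL-4 (0.55 ± 0.17 SE, edgeR adjusted p = 0.0356). Ccl4, an inflammatory CC chemokine, fell with IL-27 (-0.50 ± 0.13 SE, edgeR adjusted p = 0.0176). The Ccl9 call was lost in 12 of 19 alternatives (adjusted p = 0.124 at most), and the Ccl4 call without IL-27 replicate 3 and without untreated replicate 3 (edgeR adjusted p = 0.0737 at most). Ccl5 was not called in any comparison.

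The Cx3cr1 ligand Cx3cl1 and the Cxcr4 ligand Cxcl12 were low. Mif, also on the ligand list, averaged 112 FPKM in IL-27, 139 in IL-4 and 104 in untreated libraries. With all libraries Mif was called in no comparison. Without the 2 libraries that stood apart it was called higher than untreated with IL-4 (edgeR adjusted p = 0.000197) and with IL-27 (edgeR adjusted p = 7.25e-06). That fit called 46.4% and 49.5% of all tested genes. Cx3cl1 had 1.27 to 2.26 FPKM over the IL-27 libraries, 1.14 to 1.33 over the IL-4 libraries and 1.12 to 1.38 over the untreated libraries, and was not called in any comparison with all libraries. It passed in 3 of 19 alternatives for IL-27 against IL-4 and in 1 of 19 for IL-27 against untreated, the fit without IL-27 replicate 3 being among them both times. Leaving out single libraries gave log2 fold changes of 0.33 to 0.73 and 0.25 to 0.65. Cxcl12 had 1.65 to 2.53, 0.938 to 1.41 and 1.28 to 2.20 FPKM in these groups and was called higher with IL-27 than with IL-4 (log2 fold change 0.78 ± 0.21 SE, edgeR adjusted p = 0.0154). Between IL-4 and untreated it did not pass with all libraries but passed, lower with IL-4, in 6 of 19 alternatives. Cxcl12 is made mainly by stromal cells, and it is 1 of 10 fibroblast and endothelial markers, which summed to 201 to 254 FPKM in IL-27, 103 to 129 in IL-4 and 126 to 151 in untreated libraries. Of 9 such markers tested, Cxcl12 among them, 8 were higher and 1 lower with IL-27 than with IL-4, where 39.8% of all tested genes were called. Against untreated, 6 were higher and 1 lower with IL-27, and 1 higher and 1 lower with IL-4. The shares of all tested genes called there were 29.2% and 25.0%. Without the 2 libraries that stood apart, 6 markers were higher and 1 lower with IL-27, and 1 higher and 6 lower with IL-4. Between IL-27 and IL-4 that fit had 8 higher and 1 lower. It called 49.5%, 46.4% and 58.3% of all tested genes in these comparisons. None of the 10 was at 0 in any group, and the part of the other markers in the Cxcl12 value was not tested. The Cxcl12 call was lost in 3 of 19 alternatives, among them leaving out IL-27 replicate 1 (adjusted p = 0.0694 at most).

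Downstream of the receptors, 24 genes of G protein coupling and desensitisation were tested. With IL-4, 2 rose and 4 fell. With IL-27, 2 rose and 10 fell, and against IL-4 the IL-27 libraries had 2 higher and 10 lower. These counts stand beside 25.0%, 29.2% and 39.8% of all tested genes called, and the IL-4 count was a share equal to that background. The medians were -0.02, -0.39 and -0.35 (log2 fold change), against -0.01, 0.00 and 0.01 over all tested genes. Without the 2 libraries that stood apart the counts were 5 and 7, 6 and 14, and 4 and 17, beside 46.4%, 49.5% and 58.3% of all genes, and the IL-4 count was again near its background.

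Nup85, whose human product FROUNT binds the tail of CCR2, rose with IL-4 (log2 fold change 1.05 ± 0.10 SE, edgeR adjusted p = 4.38e-05), to 17.6 ± 0.756 FPKM in IL-4 against 8.25 ± 0.596 FPKM in untreated libraries. Rgs1, which speeds the shut-off of inhibitory G proteins, rose with IL-27 (1.01 ± 0.16 SE, edgeR adjusted p = 0.00106), to 166 ± 10.2 FPKM in IL-27 against 84.1 ± 16.9 FPKM in untreated libraries. The receptor kinases Grk3 and Grk5 and the arrestin Arrb1, which take active receptors out of service, fell with IL-27 by 0.98, 0.85 and 0.82 on the log2 scale (edgeR adjusted p = 0.000135, 0.000371 and 0.000374). Grk3 also fell with IL-4, by 0.65 (edgeR adjusted p = 0.00198), as did the G protein subunit Gng2, by 0.95 (edgeR adjusted p = 0.00101).

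Of 28 tested genes of chemotactic signalling, 1 rose and 6 fell with IL-4 and 2 rose and 11 fell with IL-27, while 6 were higher and 10 lower with IL-27 than with IL-4. The shares of all tested genes called were 25.0%, 29.2% and 39.8%, and the IL-4 count equalled its share. The medians were -0.12, -0.25 and -0.30 (log2 fold change), against -0.01, 0.00 and 0.01 over all tested genes. Without the 2 libraries that stood apart the counts were 6 and 14, 6 and 16, and 8 and 18, where 46.4%, 49.5% and 58.3% of all genes were called. The Src family kinase gene Fyn rose with IL-4 (log2 fold change 1.92 ± 0.08 SE, edgeR adjusted p = 3.81e-07) and with IL-27 (0.61 ± 0.08 SE, edgeR adjusted p = 0.00034). Pik3r5 and Pik3r6 encode alternative regulatory subunits of the G protein-driven PI3-kinase gamma. Pik3r5 fell with IL-4 by 0.75 (edgeR adjusted p = 0.00757), and Pik3r6 fell with IL-27 by 1.43 (edgeR adjusted p = 4.66e-05), together with the catalytic subunit Pik3cg by 0.66 (edgeR adjusted p = 0.00023). The Cdc42 activator Dock8 fell with IL-27 by 1.37 (edgeR adjusted p = 8.07e-06).

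**Figure D5:**
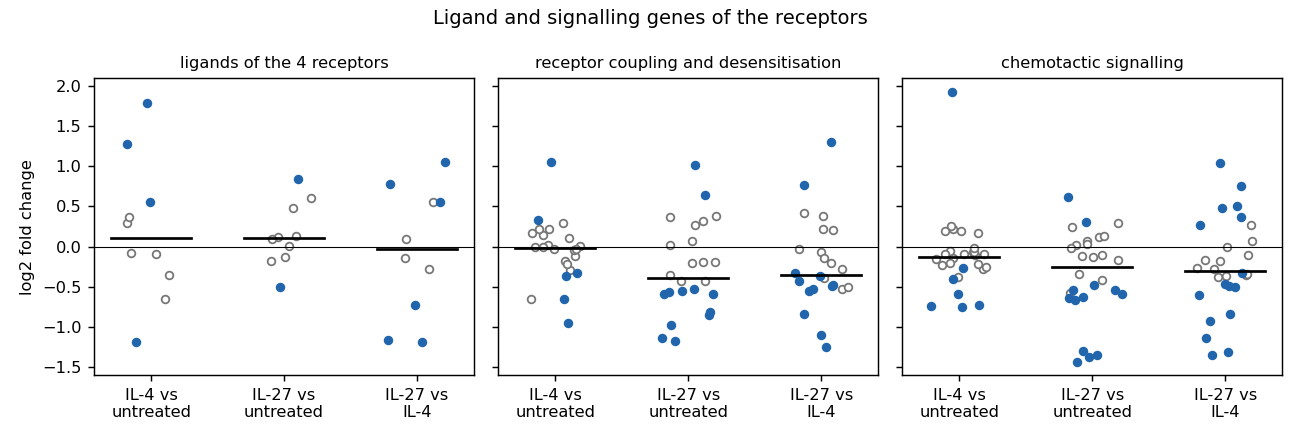
Log2 fold changes (y axis) of the tested ligands, coupling and desensitisation genes and chemotactic signalling genes, one point per gene and one column per comparison. Filled points had an edgeR adjusted p under 0.05 and lines mark medians. The coupling genes had medians of -0.39 and -0.35 in the IL-27 columns and -0.02 with IL-4.

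The genes whose log2 levels followed each receptor most closely over the 9 libraries were taken from 9405 genes with a mean of at least 5 CPM. For Cx3cr1 they were Fxyd5, Mamdc2 and Cd14 (Pearson r = 0.997, 0.995 and 0.994). Cd14, the lipopolysaccharide co-receptor, averaged 125 ± 6.98 FPKM in IL-27, 35.6 ± 1.44 in IL-4 and 215 ± 13.6 in untreated libraries. For Cxcr4 they were Slc11a1, Msrb1 and Ankrd13a (r = 0.995, 0.995 and 0.994), and Slc11a1, a phagosomal metal transporter, averaged 142 ± 3.23, 44.6 ± 4.49 and 135 ± 14.7 FPKM in these groups. For Ccr1 they were Pgam1, Plekhg1 and Isy1 (r = 0.990, 0.990 and 0.989), and for Ccr2 Esco2, Marchf6 and Psd3 (r = 0.996, 0.987 and 0.987). These are descriptions over libraries that share 3 group means, and without the 2 libraries that stood apart each r was between 0.982 and 0.998.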

How the data were processed

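Whole-number counts per gene and the matching FPKM values were deposited by the authors for all 9 libraries. The submitters' processing notes name fastp, HISAT2, HTSeq and build GRCm39, without versions or settings. No source used here names the program behind the deposited FPKM. Gene lengths computed from both tables came out whole, so the FPKM values are the same counts on another scale. Counts were tested in R 4.3.3 with edgeR 4.0.16 (quasi-likelihood, TMM, all 9 libraries in 1 fit, filterByExpr with a minimum count of 10). Genes were called at a Benjamini-Hochberg adjusted p under 0.05 over all 12587 genes tested. Each SE was derived as |log2 fold change| divided by the root of F. Each fold is the edgeR log2 fold change put on the plain scale, and so differs somewhat from the ratio of FPKM means. Levels in FPKM and CPM are means ± SD. At 34577188 to 37951827 counts per library the common dispersion was 0.0272 (biological coefficient of variation 0.165). Alternatives were DESeq2 1.42.0, limma 3.58.1 on log2(FPKM + 1) and log2(FPKM + 0.1), other scalings and filters, a replicate block and left-out libraries. The procedure was tested on simulated data. The 4 receptors and the gene lists were chosen with earlier results of these data known.

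The text names the 4 receptors, the other tested receptors, except 1 that is not reported here, and, of each other list, up to 5 called genes with the smallest adjusted p per comparison. It also names the 3 genes most like each receptor by Pearson correlation of log2 CPM (prior count 2), leaving out unnamed models. Cell markers, response genes and ligands outside this rule are named for their place in the text. Symbols are those of the table. Coding sequences and GC content (12330 of 12587 tested genes) come from an annotation of GRCm38, an older build than that of the counts, so no gene coordinates are given.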

Additional observations from a re-analysis of the deposited data

How the results depend on the processing

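No value of the 4 receptors changed sign under any of the 19 alternatives. Leaving out 1 library gave log2 fold changes of -1.80 to -1.26 for Ccr2 with IL-27 against untreated (call lost at -1.32 and -1.43, without IL-27 replicates 1 and 2) and 0.27 to 0.56 for Ccr1 with IL-27 against IL-4. That Ccr1 difference was called with DESeq2 (0.44), in the 2-group fit (0.44) and without IL-4 replicate 2 (0.56) or untreated replicate 2 (0.44). Without untreated replicate 2 and IL-4 replicate 1 together, Ccr2 with IL-4 (0.52), Cxcr4 with IL-27 (0.28) and Ccr1 with IL-27 against IL-4 (0.27) became called. The causes were not tested.

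The same 7-library fit called 3061 genes higher and 2848 lower with IL-4, 3089 and 3224 with IL-27, and 3560 higher with IL-27 than with IL-4. Its ligand counts were 5 higher and 2 lower with IL-4 and 3 and 2 with IL-27. Its coupling counts were 5 and 7 with IL-4, 6 higher with IL-27, and 4 and 17 with IL-27 against IL-4. Its chemotactic signalling counts were 6 and 14 with IL-4, 6 higher with IL-27, and 18 lower with IL-27 than with IL-4.

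Same-numbered libraries deviated with correlations between -0.797 and 0.666. The 2 libraries that stood apart carry different numbers and deviated together (r = 0.900). These correlations therefore cannot tell whether the numbers pair libraries. With the replicate block none of the 4 receptors changed its call (Cx3cr1 with IL-4 -2.74, edgeR adjusted p = 5.08e-05). Of the other receptors, Cxcr3 lost its call with IL-27 against IL-4 under the block. Under the block 1 coupling gene was called higher with IL-4 and 1 chemotactic signalling gene higher with IL-27. The total of all genes called under the block is not given.

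List counts rest on few genes. Apart from 1 value for the 2-group fit, totals of all genes called under the fits below are not given. A change in a list count therefore cannot be told apart here from a change in the total called. For ligands lower with IL-4, DESeq2 gave 3, and no filter and a filter of CPM over 1 in 3 libraries gave 2 each. The 2-group fit gave 1 coupling gene higher, 2 lower, 3 chemotactic signalling genes lower and 984 of all genes lower with IL-4. With all libraries in the fit, 1515 of all genes were lower with IL-4. Without a filter 1 chemotactic signalling gene was higher with IL-27. Between IL-27 and IL-4, limma gave 1 ligand higher with either pseudocount and DESeq2 gave 4 coupling genes higher.

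Leaving out 1 library gave 1 to 2 ligands lower with IL-4, 1 to 2 higher and 0 to 1 lower with IL-27, and 1 to 3 higher with IL-27 than with IL-4. It gave 1 to 3 coupling genes higher with either cytokine and 4 to 15 lower with IL-27 than with IL-4. It gave 1 to 2 chemotactic signalling genes higher and 3 to 10 lower with IL-4, 1 to 3 higher with IL-27, and 3 to 7 higher with IL-27 than with IL-4. Other receptors lower with IL-27 numbered 1 to 2. Totals of all genes called are not given for these fits either, so the ranges do not separate a list from all genes.

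The signs of Ackr4, Ccl5, Mif, Ccl2 and Cxcl12 turned only in comparisons where they were not called with all libraries. Leaving out 1 library gave Ackr4 -1.04 to 0.20 with IL-4 and -0.72 to 0.52 with IL-27 against IL-4, where the block gave 0.040 and the 7-library fit 0.51. For Ccl5 the ranges were -0.65 to 0.18 with IL-4, -0.19 to 0.20 with IL-27 and -0.18 to 0.65 with IL-27 against IL-4. Ccl5 with IL-27 was also -0.0075 by library totals, -0.0082 without a filter, -0.0038 in the 2-group fit, -0.038 with the block and -0.015 and -0.028 with limma. With IL-27, Ccl2 ranged from -0.12 to 0.26, Cxcl12 from -0.080 to 0.24 (-0.036 with 7 libraries) and Mif from -0.046 to 0.41. Mif with IL-27 against IL-4 ranged from -0.44 to 0.069 (0.062 with 7 libraries).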

Other observations

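Of 10 tested monocyte-stage genes other than the receptors, 1 was higher and 5 lower with IL-4 than untreated, 0 higher and 5 lower with IL-27 than untreated, and 4 higher and 4 lower with IL-27 than with IL-4. Of all tested genes, 25.0%, 29.2% and 39.8% were called. The medians were -0.90, -0.85 and 0.20 (log2 fold change), against -0.01, 0.00 and 0.01 over all tested genes. Without the 2 libraries that stood apart the counts were 1 and 6, 0 and 5, and 4 and 4, beside 46.4%, 49.5% and 58.3% of all genes.

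Chil3, a chitinase-like protein of mouse monocytes and of IL-4-treated macrophages, averaged 0.665 ± 0.516 FPKM in IL-27, 1476 ± 180.2 in IL-4 and 16.2 ± 2.79 in untreated libraries (SD, n = 3 each). Its log2 fold change was 6.47 ± 0.33 SE with IL-4 (edgeR adjusted p = 1.16e-06) and -4.58 ± 0.35 SE with IL-27 (edgeR adjusted p = 1.11e-05). Treml4 was lower with IL-27 than untreated (-2.33 ± 0.35 SE, edgeR adjusted p = 0.000786) and did not pass with IL-4 (-0.73 ± 0.32 SE, edgeR adjusted p = 0.123). Ace and Ly6c1 were lower with IL-4 than untreated (-1.95 ± 0.44 SE, edgeR adjusted p = 0.00983, and -3.31 ± 0.76 SE, edgeR adjusted p = 0.00996) and did not pass with IL-27 (-0.65 ± 0.41 SE and 0.09 ± 0.56 SE). Both had few counts. Ace had 12 to 14 per library with IL-4 and 25 to 64 untreated, and Ly6c1 had 0 to 3 and 11 to 23.

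Spn (CD43), an adhesion-limiting surface protein of patrolling monocytes, averaged 1.18 ± 0.200 FPKM in IL-27, 8.13 ± 1.68 in IL-4 and 7.03 ± 0.446 in untreated libraries (SD, n = 3 each). It was lower with IL-27 than untreated (log2 fold change -2.56 ± 0.21 SE, edgeR adjusted p = 1.86e-05) and was not called with IL-4 (0.18 ± 0.20 SE, edgeR adjusted p = 0.569). Itgal, the alpha chain of the integrin LFA-1, averaged 34.4 ± 1.26 FPKM in IL-27, 65.7 ± 6.89 in IL-4 and 91.0 ± 2.62 in untreated libraries. Its log2 fold change was -1.39 ± 0.13 SE with IL-27 (edgeR adjusted p = 3.21e-05) and -0.51 ± 0.12 SE with IL-4 (edgeR adjusted p = 0.0141). The IL-4 call did not hold in 3 of 19 alternatives, namely the 2-group fit and the fits without IL-4 replicate 2 or 3. F13a1, the coagulation factor XIII subunit, averaged 1.73 ± 0.517 FPKM in IL-27, 0.356 ± 0.0728 in IL-4 and 1.37 ± 0.241 in untreated libraries. It fell with IL-4 by 1.98 (edgeR adjusted p = 0.000286) and was not called with IL-27 (0.36 ± 0.22 SE, edgeR adjusted p = 0.252).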
